A study of Mus musculus with 10 samples.

Results

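Chemokine ligands are the small secreted proteins that draw white blood cells and other cells along a gradient. Genes were taken as chemokine ligands where the symbol in the deposited table began with Ccl, Cxcl, Cx3cl or Xcl followed by a number. The rule found 41 of the 36172 genes in the table, without using any measured value. Expression was measured by RNA sequencing in 10 libraries of cells cultured from the left atrial appendage, a small sac on the heart's left atrium. The mice were C57BL/6 adults, 8 to 12 weeks old, and each of the 5 cell types has 2 libraries.

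B-type cells were primary cells from tissue digested weakly, with 0.05% trypsin, and were sorted as positive for c-kit, a growth factor receptor of stem and progenitor cells, and for CD45, which marks white blood cells. C1, C2 and C3 cells were cultures of B-type cells at passage 6, 8 and 10. C1 cells were c-kit positive and CD45 negative, and C2 and C3 cells were negative for both. A cells were primary cells from strong digestion, with 0.25% trypsin, and were c-kit positive and CD45 negative. Collagenase D was part of both digestions, and the labels name no transgene. The comparison of B with A therefore changes the digestion and the CD45 sort together. C1 against B changes passage and the CD45 sort together, and C2 or C3 against C1 changes passage and the c-kit sort together. C1 against A changes passage together with the digestion and the CD45 sort of the source cells. Whether the 2 libraries of a type stem from different animals or cultures is not said in the labels, and p-values therefore measure the spread between libraries, which may be technical.

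Chemokines are grouped by the spacing of their first cysteines into the CC, CXC, CX3C and C families, and act through G protein-coupled receptors on the cells they attract. Macrophages make many CC chemokines when activated, stromal cells such as fibroblasts make Cxcl12 and, after inflammatory stimuli, attractants of monocytes and neutrophils, and interferons induce Cxcl10 in many cell types. In the heart, resident macrophages and fibroblasts are known sources of several of these ligands.

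The deposited values are log2 values from which each gene's median over the 10 libraries had been subtracted; they are called centred log2 values here. Where at least 2 libraries share a gene's lowest value, that value was read as a floor of 1 normalized read (a read count divided by the depth factor of the library), which gives the gene a level in normalized reads in every library. This reading was inferred from the values and is not stated with them. The relative depth ran from 0.436 to 5.03 across libraries, while read totals are unknown. A count of 0 allows up to 3 reads, a limit of 6.88 and 5.43 normalized reads for the B libraries, 3.02 and 2.00 for C1, 6.12 and 3.11 for C2, and 5.04 and 5.75 for A. In C3, the most deeply sequenced type, it lay under the floor. These limits cover counting error only. The 2 libraries of B were close to each other, with a chi-square per gene of 1.39 over 712 genes, and those of A were not, at 29.4.

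Some libraries stood apart from their type or label. Ptprc, which encodes CD45, was at 2823 and 2723 normalized reads in B, at the floor or a single read in C1, C2 and C3, and at 6.72 and 82.1 in A. Kit, which encodes c-kit, was at 22.9 and 12.7 in B-type cells, 35.3 and 66.4 in C1, 1 and 3.11 in C2, 1 and 1 in C3, and 3.36 and 72.3 in A. In A replicate 1 Kit was thus under the limit of 3 reads, which goes against the label of c-kit positive cells. Without that library, B against A had 10 chemokine ligands called in place of 11, with Cxcl2 and Ccl11 lost and Ccl9 gained, and C1 against A had 13 in place of 10. The markers of macrophages listed had values for 9 of 10 symbols, and the summed level of the 4 of them with a known level was 21416 and 20656 normalized reads in B, between 4.04 and 7.08 in the 6 C libraries, and 12.8 in A replicate 1 and 335 in A replicate 2. Each of the 9 was higher in A replicate 2. Markers of neutrophils, T and NK cells, B lymphocytes and mast cells with a known level summed to at most 8.17 normalized reads in any library. Markers of endothelium, 5 of 5 with a known level, summed to 335 and 298 in B-type cells, 5.02 and 5.0 in C1, 11.2 and 13.4 in C2, 34.4 and 54.9 in C3, and 112 and 153 in A. Of 5 markers of cardiomyocytes, Myh6 was listed at 0, and the 3 with a known level summed to 52.9 and 47.7 in C3 and to at most 12.5 elsewhere. Ddx3y, a gene of the Y chromosome, was at 555 and 414 normalized reads in B-type cells, 1344 and 1247 in C1, 57.2 and 86.2 in C2, at the floor in both C3 libraries, and 618 and 353 in A. C3 thus lacked a Y-linked transcript that the type named as its source carried, and every comparison with C3 rests on those libraries. Ddx3y was also lower in both C2 libraries than in any library of B, C1 and A, so comparisons with C2 call for caution too.

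Of the 41 chemokine ligands, 23 could be tested, 8 stayed below the filter on low values, and 10 were listed at 0 in every library. A tested gene of known level had to reach 10 normalized reads in at least 2 libraries, so it had to be high in some type, and counts over the 23 describe them and support nothing further. In 9 of the 23 the level was known, in Cxcl10, Ccl8 and Ccl6 it could be inferred from values that fell on whole reads, a step added after the data were seen, and in 11 only differences between libraries are known. A difference was called at a limma adjusted p under 0.05 and at least 1 on the log2 scale; standard errors (SE) come from that fit, with 2 libraries a type. At least 1 of 6 comparisons called 21 of the 23, and Ccl27b and Ccl25 were called in 0.

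**Figure D1:**
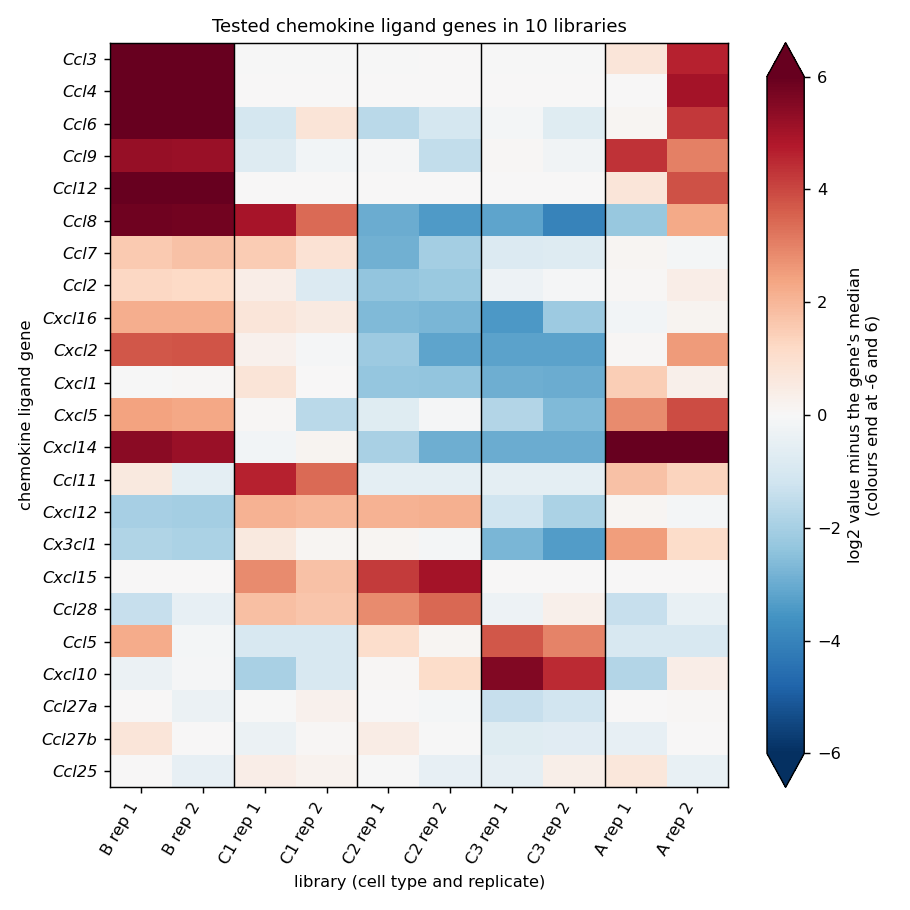
Centred log2 values of the 23 tested chemokine ligands in each of the 10 libraries, with the cell types in the order B, C1, C2, C3 and A and 1 row a gene. Ccl3, Ccl4, Ccl6 and Ccl12 are high in both B libraries, Cxcl12 in the C1 and C2 libraries and Cxcl10 in the C3 libraries, and the 2 A libraries differ from each other in many rows.

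Each change of type moved a sizeable share of the chemokine ligands. Between B and A, 11 of 23 were called (47.8%), 8 higher and 3 lower in B, where 26.9% of all 14254 tested genes were called, 14.5% higher and 12.4% lower. With quantile normalization the split was 4 higher and 4 lower, without Ccl4, Ccl7, Ccl8, Ccl11 and Cxcl2 and with Cxcl5 and Cxcl14. Between C1 and B, 15 were called, 5 higher and 10 lower in C1, against a background of 33.7% (12.6% higher, 21.1% lower). Between C1 and A, 10 were called, 6 higher and 4 lower in C1, against 26.6% (10.1% higher, 16.6% lower). These 3 comparisons share libraries, as do the following 3. In all of them the share over all genes is not a like-for-like background. Genes of known level, kept by the filter only if high in some type, were 9 of the 23 but 1195 of the 14254. A higher share among the chemokine ligands may thus be partly fixed by the filter, and how far was not tested.

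Between C2 and C1, 10 were called, 2 higher and 8 lower in C2, against a background of 20.4% (12.2% higher, 8.18% lower). Between C3 and C2, 9 were called, 4 higher and 5 lower in C3, against 27.9% (11.6% higher, 16.2% lower); with quantile normalization 5 were higher and 4 lower, without Ccl27a and with Cxcl16. Between C3 and C1, 14 were called, 2 higher and 12 lower in C3, against 34.8% (17.1% higher, 17.7% lower). The median log2 difference of the 23 was 0.62 for B against A, -1.44 for C1 against B, -0.47 for C1 against A, -0.32 for C2 against C1, -0.11 for C3 against C2 and -1.41 for C3 against C1. With groups at the floor set to their limit of 3 reads, the median became 0.48 for B against A, -1.23 for C1 against B, -0.17 for C2 against C1 and 0 for C3 against C2, and kept its value for the others. Over all tested genes the medians lay between -0.066 and 0.0053.

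**Figure D2:**
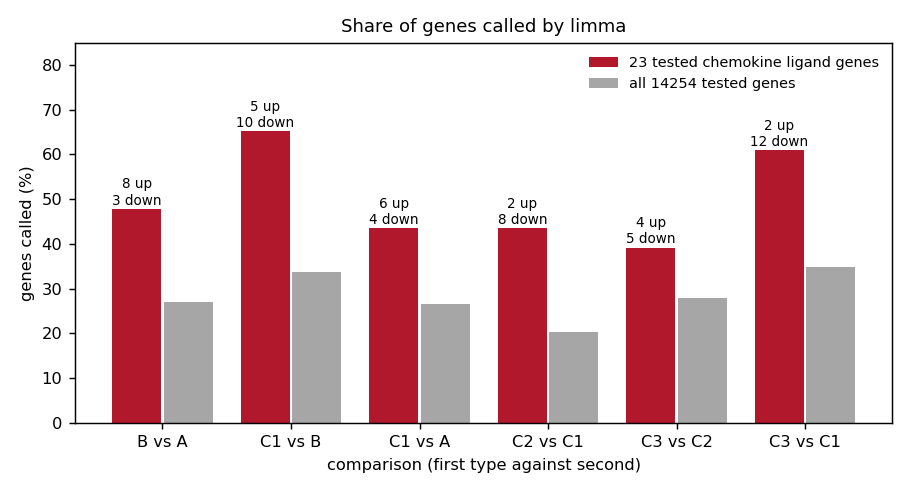
Percent of the 23 tested chemokine ligands and of all 14254 tested genes called in each of the 6 comparisons as pairs of bars, with the number of members higher (up) and lower (down) in the first-named type above. In each comparison the chemokine share is above the share over all genes, from 39.1% for C3 against C2 to 65.2% for C1 against B. The shares are not like for like. Genes of known level, kept by the filter only if high in some type, were 9 of the 23 members but 1195 of all 14254 genes. The excess may thus be partly fixed by the filter.

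Ccl3, Ccl4, Ccl6, Ccl9 and Ccl12, CC chemokines that attract monocytes and macrophages, were higher in B than in C1, C2 and C3. They are grouped here by their course, and other CC chemokines, given further on, took other courses. Ccl3 and Ccl4, known as macrophage inflammatory proteins, lie side by side on chromosome 11 (GRCm38, 83647843 to 83649378 and 83648624 to 83664683), where their annotated spans overlap, and the kit does not mark strand. Ccl3 was at 694 and 702 normalized reads in B-type cells, 1.01 and 1 in C1, 1 and 1.04 in C2, 1 and 1 in C3, and 1.68 and 24.9 in A. The 2 B libraries lay far above all others, and A replicate 2 was the next highest. Ccl4 was at 856 and 890 normalized reads in B, at the floor of 1 in all 6 C libraries, and at 1 and 31.5 in A.

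Ccl6 and Ccl9, which in the mouse attract monocytes through Ccr1, lie next to Ccl3 in the same cluster, Ccl9 at 83572917 to 83578636 and Ccl6 at 83587886 to 83593087. Ccl6, the most abundant chemokine ligand of B in normalized reads among those with a level, was at 5557 and 5850 in B-type cells, 3.02 and 10.6 in C1, 2.04 and 3.06 in C2, 5.88 and 3.77 in C3, and 6.72 and 119 in A. Ccl9, of which the level is unknown, had centred log2 values of 5.22 and 5.18 in B-type cells, -0.78 and -0.16 in C1, -0.09 and -1.48 in C2, 0.09 and -0.23 in C3, and 4.34 and 3.0 in A. In contrast to Ccl3, Ccl4 and Ccl6, Ccl9 was high in both A libraries as well as in B.

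Ccl12, a Ccr2 ligand of the mouse, is part of a second group on chromosome 11, at 82101845 to 82103399. It was at 613 and 786 normalized reads in B, at the floor of 1 in the 6 C libraries, and at 1.68 and 13.9 in A. Both B libraries lay far above the others, and A replicate 2 was again the next highest.

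In B against A the log2 difference was 7.66 ± 1.24 (SE) for Ccl6 (adjusted p = 0.00318), 7.28 ± 1.34 for Ccl4 (adjusted p = 0.00525), 7.17 ± 0.83 for Ccl12 (adjusted p = 0.000858) and 6.75 ± 1.05 for Ccl3 (adjusted p = 0.00269). Ccl9 was not called there, at 1.53 ± 0.56 (adjusted p = 0.0702). In C1 against B, Ccl6 fell by 9.97 ± 1.24 on the log2 scale (adjusted p = 0.000729) and Ccl9 by 5.67 ± 0.56 (adjusted p = 0.000284). Ccl12 was at least 231-fold (adjusted p = 0.000172) and Ccl4 at least 289-fold (adjusted p = 0.00109) lower in C1 than in B, set against the limit of 3 reads in the shallower C1 library, and Ccl3 fell to a single read or fewer in the C1 libraries (adjusted p = 0.000460). None of these 5 genes was called in C2 against C1, C3 against C2 or C3 against C1. In C1 against A, only Ccl9 among them was called, at -4.14 ± 0.56 (adjusted p = 0.00169). The data are from bulk samples, in which fewer cells of a type and less RNA per cell cannot be told apart.

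The A libraries disagreed on these genes. Over the 23 tested chemokine ligands, A replicate 2 was above A replicate 1 for 13 and below it for 8, 8 and 5 of them by over 1 on the log2 scale, and the root mean square gap was 2.21, against 0.58 to 0.83 in the other types. Ccl3, Ccl4, Ccl6, Ccl8 and Ccl12 were higher in A replicate 2, the library in which the summed level of macrophage markers was 335 rather than 12.8 normalized reads and Ptprc 82.1 rather than 6.72. Endothelial markers, too, summed highest in B, at 335 and 298 normalized reads, and to 112 in A replicate 1 and 153 in A replicate 2. The part of macrophages and endothelial cells in these results was not tested. Without A replicate 1, the log2 difference between B and A was 5.64 for Ccl12, 4.81 for Ccl3, 4.79 for Ccl4 and 5.59 for Ccl6. Without A replicate 2, it was 8.69 for Ccl12, 8.70 for Ccl3, 9.77 for Ccl4 and 9.73 for Ccl6, and B was above A in either case. Fitted on the 4 libraries of B and A alone, adjusted p was 0.0619 for Ccl3, 0.0819 for Ccl4, 0.0558 for Ccl6, 0.102 for Ccl8 and 0.163 for Cxcl2, so that these calls rest on the spread shared with the C types. Without A replicate 1, C1 against A called 13 chemokine ligands in place of 10, with Ccl3, Ccl4, Ccl6, Ccl12 and Cxcl2 added and Ccl8 and Cx3cl1 lost.

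**Figure D3:**
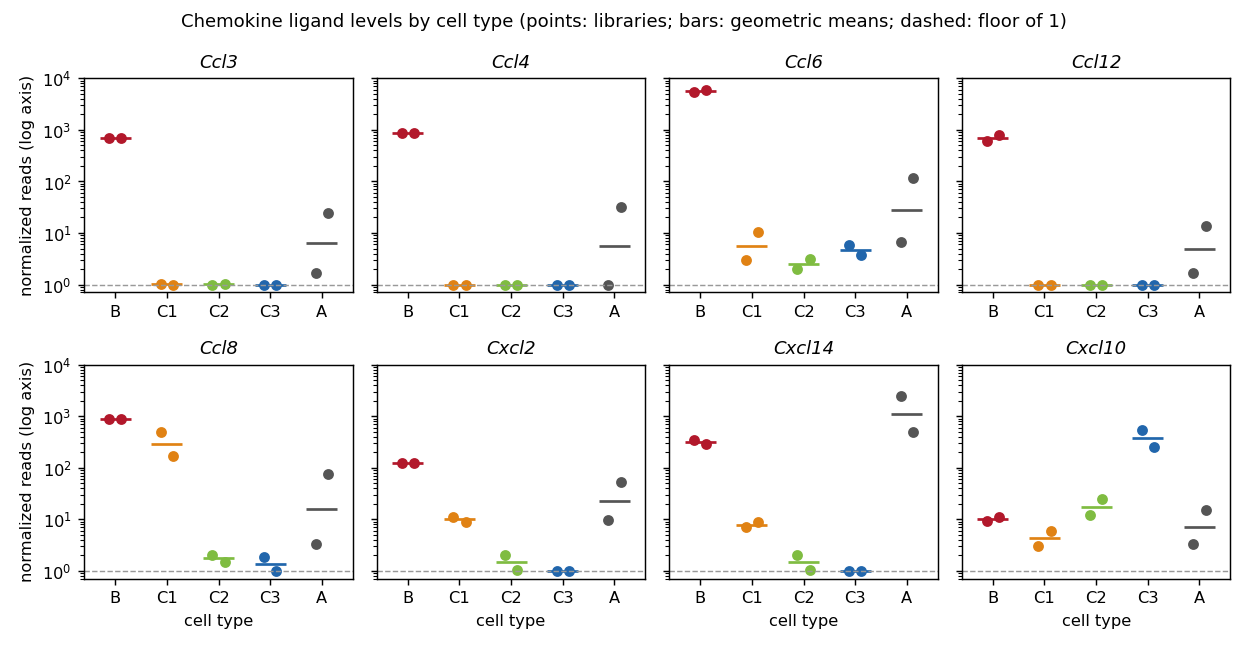
Normalized reads, on a log10 axis, of 8 chemokine ligands with a known or inferred level, 1 point a library and a bar at the geometric mean, with the cell types in the order B, C1, C2, C3 and A. Ccl6 reaches 5850 in B and at most 119 elsewhere, Ccl8 stays at 167 or more in B and C1, and Cxcl10 reaches 549 in C3.

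The monocyte chemoattractants of the second group on chromosome 11 took different courses. Ccl2, the main ligand of Ccr2, lies at 82035577 to 82037452, Ccl7, which binds Ccr2 and other receptors, at 82045712 to 82047525, Ccl11 at 82057832 to 82062955 and Ccl8 at 82115185 to 82116799. Ccl8, which in the mouse signals through Ccr8, was at 903 and 901 normalized reads in B-type cells, 493 and 167 in C1, 2.04 and 1.5 in C2, 1.81 and 1 in C3, and 3.36 and 76.6 in A. B and C1 were high, with the C1 libraries below those of B, and C2 and C3 were near the floor. B exceeded A by 5.81 ± 1.31 on the log2 scale (adjusted p = 0.0120), a difference of 3.56 without A replicate 1 and 8.07 without A replicate 2, and the call was lost without either B library. C1 and B were not called different at -1.65 ± 1.31 (adjusted p = 0.329). That SE takes in the gap between the 2 A libraries, and C1 and B were called different when either A library was left out. Ccl8 fell in C2 against C1 (adjusted p = 0.00615).

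Ccl7 had centred log2 values of 1.58 and 1.74 in B-type cells, 1.52 and 0.87 in C1, -2.89 and -2.05 in C2, -0.84 and -0.75 in C3, and 0.12 and -0.12 in A. Ccl2 had 1.25 and 1.19 in B-type cells, 0.39 and -0.84 in C1, -2.39 and -2.22 in C2, -0.31 and -0.08 in C3, and 0.08 and 0.41 in A. Both were lowest in C2, and C3 lay between C2 and B. In C2 against C1, Ccl7 changed by -3.66 ± 0.32 (adjusted p = 0.00042) and Ccl2 by -2.08 ± 0.37 (adjusted p = 0.00586). Fitted on the C2 and C1 libraries alone, the Ccl2 call was lost. In C3 against C2, both rose, Ccl2 by 2.10 ± 0.37 (adjusted p = 0.00392) and Ccl7 by 1.68 ± 0.32 (adjusted p = 0.0054). C3 against C1 was not called for Ccl2, at 0.02 ± 0.37 (adjusted p = 0.989), while Ccl7 stayed lower in C3, at -1.99 ± 0.32. B exceeded A in Ccl7 by 1.66 ± 0.32 (adjusted p = 0.00603) and was not called for Ccl2, at 0.97 ± 0.37 (adjusted p = 0.0748). In C1 against B, Ccl2 was lower, at -1.44 ± 0.37 (adjusted p = 0.0150), a call lost without either B library and, at -0.83, without C1 replicate 2, and with quantile normalization. Ccl7 was not called there (adjusted p = 0.256).

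Against A, C1 was higher in Ccl7, by 1.20 ± 0.32 (adjusted p = 0.0210), and in Ccl8, by 4.16 ± 1.31 (adjusted p = 0.0393). The Ccl7 call was lost without A replicate 2 and without C1 replicate 1. The Ccl8 difference was 1.91 without A replicate 1 and 6.42 without A replicate 2, and its call was lost when any of 9 libraries was left out, all but A replicate 2. Ccl11, also called eotaxin for its attraction of eosinophils through Ccr3, was at 2.29 and 1 normalized reads in B-type cells, 37.3 and 16.0 in C1, 1 and 1 in C2, 1 and 1 in C3, and 5.04 and 3.83 in A. It was thus above its limit of 3 reads in C1 only, where it exceeded B (adjusted p = 0.000643) and A (adjusted p = 0.0067). It was at least 4.35-fold lower in C2 than in C1 (adjusted p = 0.000852). B and A were both at or under the limit, and their call at adjusted p = 0.0417, lost when any of 7 libraries was left out, is given without a fold.

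The CXC chemokines that attract neutrophils are clustered on chromosome 5, and Cxcl1, Cxcl2, Cxcl3 and Cxcl5 act through Cxcr2. Cxcl5 lies at 90759298 to 90761625, Cxcl3 at 90786101 to 90788093, Cxcl15 at 90794534 to 90803067, Cxcl1 at 90891245 to 90893121 and Cxcl2 at 90903899 to 90905938. Inflammatory cytokines induce Cxcl1 and Cxcl2 through NF-kB, and the stretch before the start of Cxcl1, Cxcl2 and Cxcl3 is shown because it holds a short form of the site bound by NF-kB, in capitals. The letters searched were GGG, any 2 bases, TTT and CC, on either strand. Cxcl15, another gene of the cluster, is shown as well, with no match, and Cxcl5 has no promoter entry. Cxcl1 and Cxcl2 did not take the same course, as given below, and a link between match and course was not tested. Sequences are from RefSeq (GRCm38.p6), 130 bases ending just before the annotated start.
Cxcl1, chr5:90891115-90891244, plus strand: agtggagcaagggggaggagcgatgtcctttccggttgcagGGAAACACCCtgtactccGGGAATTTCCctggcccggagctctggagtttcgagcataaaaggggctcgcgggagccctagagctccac
Cxcl2, chr5:90903769-90903898, plus strand: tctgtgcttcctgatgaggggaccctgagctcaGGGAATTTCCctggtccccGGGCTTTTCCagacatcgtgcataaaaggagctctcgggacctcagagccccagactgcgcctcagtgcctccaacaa
Cxcl3, chr5:90785971-90786100, plus strand: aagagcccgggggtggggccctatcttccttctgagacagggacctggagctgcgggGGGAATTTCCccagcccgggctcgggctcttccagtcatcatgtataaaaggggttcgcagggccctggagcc
Cxcl15, chr5:90794404-90794533, plus strand: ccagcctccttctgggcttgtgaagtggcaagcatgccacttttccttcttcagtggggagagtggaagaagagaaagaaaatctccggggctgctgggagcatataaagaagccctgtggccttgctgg

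The motif was present in 535 of 32851 RefSeq promoters (1.63%), which run from base -250 to 50 bases after a start, and in those of 5 chemokine ligands, Ccl9, Ccl20, Cxcl1, Cxcl2 and Cxcl3, of 27 with an entry. Counted from the start, its first base lay at -73 in Cxcl3, at -71 and, on the opposite strand, -89 in Cxcl1, and at -97 and -78 in Cxcl2. A match is a description of letters and says nothing of binding.

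Cxcl2 was at 123 and 126 normalized reads in B-type cells, 11 and 8.96 in C1, 2.04 and 1.04 in C2, 1 and 1 in C3, and 9.72 and 54.1 in A. Its highest libraries were those of B, and it was low in C2 and C3. B exceeded A by 2.44 ± 0.73 on the log2 scale (adjusted p = 0.0347), a call lost at 1.20 without A replicate 1 and lost without any of 6 others, both B, both C1 and both C3 libraries. In C1 against B it fell by 3.64 ± 0.73 (adjusted p = 0.00554). Cxcl2 fell further in C2 against C1 (adjusted p = 0.0249), where each C2 library held a single read and the call was lost without any 1 of the C1 and C2 libraries. Cxcl1 had centred log2 values of -0.02 and 0.09 in B-type cells, 0.77 and 0.02 in C1, -2.31 and -2.39 in C2, -2.92 and -2.98 in C3, and 1.47 and 0.32 in A. C1 overlapped both B and A, and C2 and C3 lay below all of them. Cxcl1 was lower in C2 than in C1, at -2.74 ± 0.39 (adjusted p = 0.00252), lower in C3 than in C1, at -3.34 ± 0.39, and not called in B against A, at -0.86 ± 0.39 (adjusted p = 0.122).

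Cxcl5 had centred log2 values of 2.43 and 2.33 in B-type cells, 0.06 and -1.63 in C1, -0.75 and -0.06 in C2, -1.76 and -2.64 in C3, and 2.84 and 3.90 in A. Both primary types lay above every passaged library, with A highest. In C1, Cxcl5 was lower than in B, at -3.17 ± 0.62 (adjusted p = 0.00521) and lower than in A, at -4.16 ± 0.62 (adjusted p = 0.00244), and B against A was not called, at -0.99 ± 0.62 (adjusted p = 0.251). Cxcl3 did not pass the filter, with 6.23 and 6.18 normalized reads in B-type cells, 1 in every C library, and 1 and 7.60 in A. Cxcl15, known in the mouse as lungkine, a neutrophil attractant of the lung, was at 1 and 1 normalized reads in B-type cells, 7.17 and 3.34 in C1, 18.4 and 31.7 in C2, 1 and 1 in C3, and 1 and 1 in A. It was highest in C2, above C1 by 2.30 ± 0.38 on the log2 scale (adjusted p = 0.00458), a call lost in a fit on the C2 and C1 libraries alone. In C3 against C2, Cxcl15 fell to the floor (adjusted p = 0.000244). C1 was called above B (adjusted p = 0.00248) and A (adjusted p = 0.00357), although the C1 mean of 5.25 was under the limit of the shallower B library.

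Cxcl14 and Cxcl16 were both low in C2 and C3. Cxcl14, an attractant of monocytes and dendritic cells that fibroblasts and epithelia make, lies on chromosome 13 at 56288643 to 56296811. It was at 339 and 284 normalized reads in B-type cells, 7.05 and 8.68 in C1, 2.04 and 1.04 in C2, 1 and 1 in C3, and 2470 and 498 in A. A was highest in both libraries, B next, and all C libraries lay under 10. C1 was lower than A, at -7.15 ± 0.69 (adjusted p = 0.000487; -5.99 without A replicate 1 and -8.30 without A replicate 2) and lower than B, at -5.31 ± 0.69 (adjusted p = 0.000879), and the difference of B from A, at -1.84 ± 0.69, was not called (adjusted p = 0.0743). The further fall in C2 against C1 was called (adjusted p = 0.0331), again with a single read in each C2 library, and was lost without any 1 of the 8 libraries other than A. Markers of fibroblasts averaged 0.69 and 0.58 centred log2 in B-type cells, -1.87 and -2.0 in C1, 1.02 and 0.90 in C2, -2.07 and -2.76 in C3, and 2.39 and 2.03 in A, and their part in the Cxcl14 result was not tested.

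Cxcl16, a membrane-bound ligand of Cxcr6 made by macrophages and dendritic cells, lies on chromosome 11 at 70454389 to 70459984. It had centred log2 values of 2.19 and 2.18 in B-type cells, 0.75 and 0.53 in C1, -2.66 and -2.72 in C2, -3.44 and -2.16 in C3, and -0.17 and 0.17 in A. The types did not overlap except C2 and C3, the lowest. B exceeded A by 2.18 ± 0.38 (adjusted p = 0.00421), and C1 was lower than B, at -1.54 ± 0.38 (adjusted p = 0.0133), a call lost without either B library, without C1 replicate 2 and with quantile normalization. C2 was lower than C1, at -3.33 ± 0.38 (adjusted p = 0.00112). Exons of Zmynd15 overlap Cxcl16 on the opposite strand, so their reads cannot be told apart without strand. Zmynd15 also changed in C2 against C1, at -2.50 ± 0.61 (adjusted p = 0.0189). It changed by -3.34 ± 0.61 in C3 against C2 (adjusted p = 0.00466) and by -5.84 ± 0.61 in C3 against C1 (adjusted p = 0.000292).

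**Figure D4:**
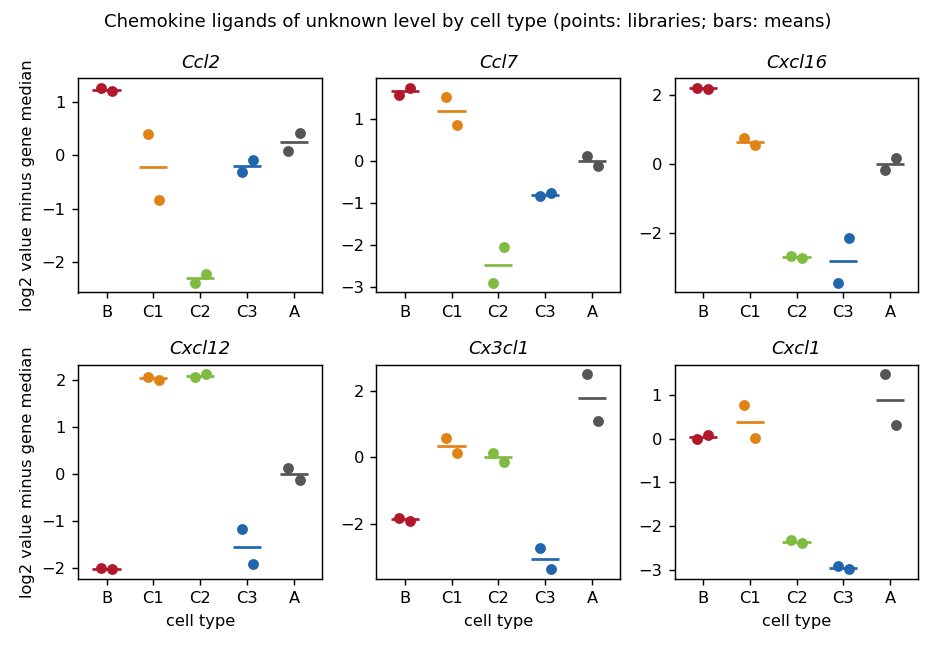
Centred log2 values of 6 chemokine ligands whose level is unknown, 1 point a library and a bar at the mean, with the cell types in the order B, C1, C2, C3 and A. Cxcl12 lies at 2.01 or more in the C1 and C2 libraries and at -1.18 or less in those of B and C3, and Ccl2 and Ccl7 are lowest in C2.

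The stromal chemokine Cxcl12 and the membrane-bound Cx3cl1 were higher in C1 than in B, where Ccl3, Ccl4, Ccl6, Ccl9 and Ccl12 were lower. Cxcl12, which retains progenitor cells and lymphocytes in tissues through Cxcr4, lies on chromosome 6 at 117168535 to 117181368. It had centred log2 values of -2.01 and -2.02 in B-type cells, 2.07 and 2.01 in C1, 2.08 and 2.12 in C2, -1.18 and -1.92 in C3, and 0.12 and -0.12 in A. The libraries of each type lay close together, and C1 and C2 did not differ beyond their spread, at 0.06 ± 0.24 (adjusted p = 0.889). Cxcl12 was higher in C1 than in B by 4.06 ± 0.24 (adjusted p = 3.5e-05) and higher in C1 than in A by 2.04 ± 0.24 (adjusted p = 0.00096). It was lower in B than in A, at -2.02 ± 0.24 (adjusted p = 0.000925) and lower in C3 than in C2, at -3.65 ± 0.24 (adjusted p = 0.000103). Fibroblast markers averaged 0.69 and 0.58 centred log2 in B, -1.87 and -2.0 in C1, and 1.02 and 0.90 in C2. They averaged -2.07 and -2.76 in C3, and 2.39 and 2.03 in A. Their part in the Cxcl12 result was not tested.

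Cx3cl1, or fractalkine, the ligand of Cx3cr1 on monocytes and macrophages, lies on chromosome 8 at 94772180 to 94782427. It had centred log2 values of -1.81 and -1.91 in B-type cells, 0.59 and 0.13 in C1, 0.14 and -0.13 in C2, -2.73 and -3.35 in C3, and 2.50 and 1.11 in A. It was highest in A and lowest in C3, and C1 and C2 were near each other. B was lower than A, at -3.66 ± 0.45 (adjusted p = 0.00106; -2.97 without A replicate 1 and -4.36 without A replicate 2), C1 higher than B by 2.22 ± 0.45 (adjusted p = 0.00578) and C3 lower than C2, at -3.04 ± 0.45 (adjusted p = 0.00201). C1 was lower than A, at -1.44 ± 0.45 (adjusted p = 0.0372), with -0.75 without A replicate 1 and -2.14 without A replicate 2, and the call was lost when any of 7 libraries was left out, all but A replicate 2 and those of C3.

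In C3 cells Cxcl10 and Ccl5 were higher than in the other passaged types. Cxcl10, which attracts activated T cells through Cxcr3 and is induced by interferons, lies on chromosome 5 at 92346638 to 92348889. It was at 9.18 and 10.9 normalized reads in B-type cells, 3.02 and 6.01 in C1, 12.2 and 24.8 in C2, 549 and 255 in C3, and 3.36 and 15.3 in A. Both C3 libraries lay above all 8 other libraries. The log2 difference was 4.42 ± 0.77 for C3 against C2 (adjusted p = 0.00397) and 6.46 ± 0.77 for C3 against C1 (adjusted p = 0.000544). C2 against C1 was not called, at 2.03 ± 0.77 (adjusted p = 0.0817), but was called when either A library was left out. Exons of Art3 overlap Cxcl10 on the opposite strand, and Art3 was at the floor in every C library.

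The promoter of Cxcl10 is shown because it holds a core of the element through which interferons induce genes, in capitals. The letters searched were TTTC, any 2 bases and TTTC, on either strand, and the match is on the opposite strand. The stretch is the first 130 bases of the promoter entry, which begins at base -250 from the annotated start.
Cxcl10, chr5:92349010-92349139, minus strand: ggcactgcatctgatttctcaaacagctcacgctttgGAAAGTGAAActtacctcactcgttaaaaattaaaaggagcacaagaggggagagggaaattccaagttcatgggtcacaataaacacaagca
The first base of the match lay at -213. These letters were present in 1131 of the 32851 RefSeq promoters (3.44%) and in those of Ccl19, Cxcl10 and Cxcl14 among the chemokine ligands.

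Ccl5, also called RANTES, which attracts T cells and monocytes, lies on chromosome 11 at 83525778 to 83530518. It was at 9.18 and 1.81 normalized reads in B-type cells, 1.01 and 1 in C1, 4.08 and 2.07 in C2, 25.6 and 15.4 in C3, and 1 and 1 in A. C3 was above all other libraries, and the remaining types were at or near their limits of 3 reads. C3 was called above C2 (adjusted p = 0.0187), a call lost without either C3 library or C2 replicate 2, and above C1 (adjusted p = 0.00236). Markers of mesothelium, the lining of body cavities, averaged 3.98 and 3.96 centred log2 in C3 and at most 0.47 in the other libraries. The summed markers of cardiomyocytes were also highest in C3, at 52.9 and 47.7 normalized reads, and the part of either cell type in the Cxcl10 and Ccl5 results was not tested.

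The remaining tested members are linked to Ccr10 or to T cells of the thymus and gut. Ccl28, a ligand of Ccr10 made by mucosal epithelia, lies on chromosome 13 at 119623819 to 119654359. It was at 1 and 1.81 normalized reads in B-type cells, 9.07 and 8.01 in C1, 18.4 and 27.9 in C2, 2.07 and 3.18 in C3, and 1 and 1.92 in A. Like Cxcl15 it was highest in C2, and the centred values of both genes gave r = 0.948 over the 10 libraries, a description without a test, as the libraries fall into types. C1 was called above B (adjusted p = 0.00218) and A (adjusted p = 0.0034). B and A were at or under their limits of 3 reads, so C1 was at least 1.24-fold above B and 1.49-fold above A. Both calls were lost with a pseudocount of 8. C2 exceeded C1 by 1.41 ± 0.43 (adjusted p = 0.0416), a call lost with that pseudocount and without any 1 of the 6 C libraries. C3 was lower than C2, at -3.14 ± 0.43 (adjusted p = 0.00153).

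Ccl27a, a skin chemokine that binds Ccr10, lies on chromosome 4 at 41769467 to 41774225. It had centred log2 values of 0.02 and -0.37 in B-type cells, -0.01 and 0.24 in C1, 0.01 and -0.12 in C2, -1.40 and -1.14 in C3, and 0.03 and 0.06 in A. C3 alone lay apart, lower than C2, at -1.22 ± 0.18 (adjusted p = 0.0022) and lower than C1, at -1.38 ± 0.18. Its values are uncertain, since Ccl27b is a near-identical copy between which reads may be split. Exons of Il11ra1 also overlap it on the opposite strand, with a log2 difference of -1.64 ± 0.30 in C3 against C2 (adjusted p = 0.00501). Ccl27b, from -0.72 to 0.74, and Ccl25, from -0.52 to 0.69, were called in 0 comparisons.

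Set against C1, C3 was lower in most of the chemokine ligands that were called, and the comparison rests on the C3 libraries that lack Ddx3y. Cxcl12 differed by -3.59 ± 0.24 (adjusted p = 5.3e-05), Cxcl16 by -3.44 ± 0.38 (adjusted p = 0.000379) and Cx3cl1, with values under those of every other type, by -3.40 ± 0.45 (adjusted p = 0.000829). The Cxcl16 value may hold reads of Zmynd15, which differed by -5.84 ± 0.61 in this comparison. Ccl8, at 1.81 and 1 normalized reads in C3 against 493 and 167 in C1, was called (adjusted p = 0.00254). Ccl11 (adjusted p = 0.000307), Cxcl15 (adjusted p = 0.00232), Cxcl2 (adjusted p = 0.00784) and Cxcl14 (adjusted p = 0.009995) were at the floor in both C3 libraries, and the Cxcl14 call was lost without C1 replicate 2. Ccl28 differed by -1.73 ± 0.43 (adjusted p = 0.0130), a call lost without C1 replicate 1 and without C3 replicate 1. With a pseudocount of 8, the calls of Ccl28, Cxcl2, Cxcl14 and Cxcl15 were lost.

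The members not tested were low everywhere. Ccl17, Ccl19, Ccl20, Ccl21b, Ccl24, Cxcl3, Cxcl13 and Cxcl17 had values but did not pass the filter, and their highest value was 9.05 normalized reads, for Ccl17, a ligand of Ccr4, in B replicate 2. Ccl20, the ligand of Ccr6, reached 7.93 in C3 replicate 2. Listed at 0 in every library were Ccl1, Ccl16-ps, Ccl19-ps1, Ccl19-ps2, Ccl21a, Ccl22, Ccl26, Cxcl9, Cxcl11 and Xcl1. Cxcl9, like Cxcl10, is an interferon-induced ligand of Cxcr3. Cxcl11 is annotated as a transcribed pseudogene in the mouse reference genome. Ccl19 and Ccl21, ligands of Ccr7, have near-identical copies in the mouse genome, so their low values are uncertain.

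The receptors were examined as a list of 23, of which 10 could be tested. In B against A, 6 were higher and 0 lower in B (14.5% and 12.4% over all tested genes), and the same 6 genes, Ccr1, Ccr2, Ccrl2, Cx3cr1, Cxcr3 and Cxcr4, were lower in C1 than in B, with 0 higher (21.1% and 12.6% over all genes). Receptors of known level, such as Ccr2 and Cxcr3, which were at the floor outside B, passed the filter only through the type in which they were high, so these counts were partly fixed by it and support nothing further. Ccr1, a receptor of Ccl3, Ccl6 and Ccl9, was at 2113 and 2160 normalized reads in B, at the floor or at most 1.59 in the C libraries, and 5.04 and 57.5 in A. Cxcr4, the receptor of Cxcl12, was at 1090 and 1023 in B-type cells, 1 in every C library, and 10.1 and 55.6 in A. In C1 and C2 Cxcl12 was thus at its highest while Cxcr4 was at the floor.

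Cx3cr1 was at 477 and 440 normalized reads in B, at most 1.04 in C1 and C2, 6.48 and 6.95 in C3, and 1 and 13.4 in A, so that B, low in Cx3cl1, was highest in its receptor. Markers of macrophages and of endothelium were also highest in B, and their part was not tested. Cxcr7, the atypical receptor that takes up Cxcl12, had centred log2 values of 0.15 and -0.15 in B-type cells, 0.65 and 1.37 in C1, -0.67 and -1.04 in C2, -5.16 and -6.22 in C3, and 0.80 and 0.31 in A. It changed by -4.84 ± 0.40 in C3 against C2 and by -6.70 ± 0.40 in C3 against C1, in the comparisons in which Cxcl12 was lower too. Cxcr2, the receptor of Cxcl1, Cxcl2, Cxcl3 and Cxcl5, and Ccr4, Ccr6 and Ccr8 were listed at 0 in every library.

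**Figure D5:**
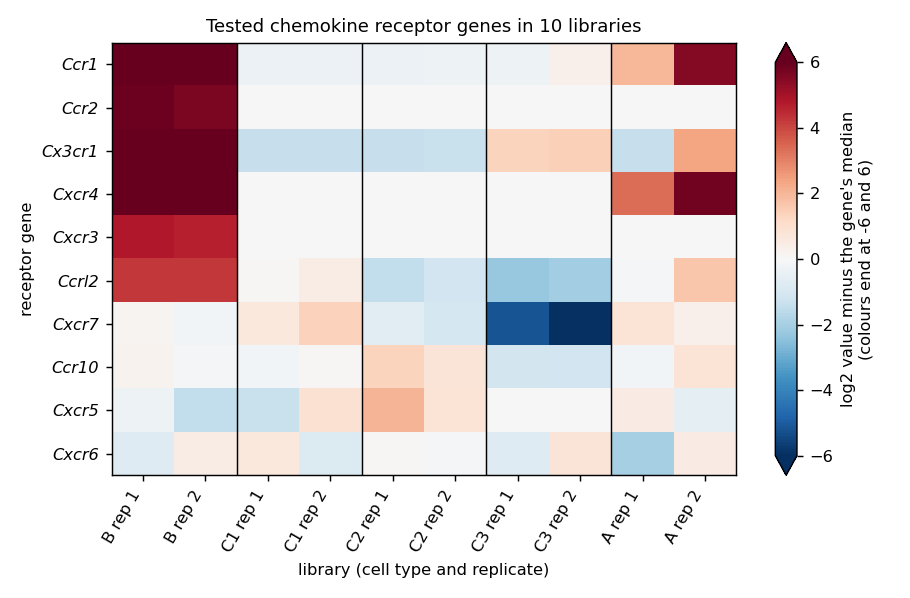
Centred log2 values of 10 tested chemokine receptors in each of the 10 libraries, with the cell types in the order B, C1, C2, C3 and A and 1 row a gene. Ccr1, Cx3cr1 and Cxcr4 are highest in both B libraries and in A they are higher in replicate 2, and Cxcr7 is lowest in C3.

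Cytokines and signalling genes that induce chemokines were a list of 25, with 22 tested. In B against A, 6 were higher and 2 lower in B, where 14.5% and 12.4% of all tested genes were. In C1 against B, 0 were higher and 11 lower in C1, where 12.6% and 21.1% of all genes were. Of the 22, only Il1b and Tnf were of known level and passed the filter through the type in which they were high. The others were of unknown level and were kept without it. Il1b, a cytokine of activated macrophages, was at 106 and 79.6 normalized reads in B, at the floor in the C libraries, and at 1 and 1.92 in A. Tnf, another, was at 73.4 and 83.3 in B, at the floor in the C libraries, and 1 and 11.5 in A. Il1a, of the same family as Il1b, was higher in B than in A by 4.81 ± 0.66 (adjusted p = 0.00163) and lower in C1 than in B, at -5.49 ± 0.66. Tnfrsf1b, a receptor of Tnf, was higher in B than in A by 2.68 ± 0.39. Il6, a cytokine of both macrophages and fibroblasts, was lower in C1 than in B, at -4.13 ± 0.31, and lower in C1 than in A, at -4.09 ± 0.31. In C3 against C2, 2 were higher and 1 lower in C3 (11.6% and 16.2% over all genes). Il1r1, the signalling receptor of interleukin-1, was lower in C3, at -2.94 ± 0.38 (adjusted p = 0.00120), and Tnfaip3, a brake on NF-kB signalling, was higher by 1.18 ± 0.15 (adjusted p = 0.00108). Ifng and Ifnb1, which encode interferons, were listed at 0 in every library. The list had 1 higher and 6 lower in C1 against A, 2 and 0 in C2 against C1, and 4 and 2 in C3 against C1. Over all genes, the shares in these were 10.1% and 16.6%, 12.2% and 8.18%, and 17.1% and 17.7%.

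Proteases that cut chemokines and proteoglycans that hold them were a list of 14, all tested. In B against A, 6 were higher and 5 lower (14.5% and 12.4% over all genes), and in C1 against B, 1 and 6 (12.6% and 21.1%). For C1 against A the counts were 1 and 4 (10.1% and 16.6%), and for C2 against C1, 3 and 2 (12.2% and 8.18%). They were 0 and 2 in C3 against C2 (11.6% and 16.2%), and 1 and 2 in C3 against C1 (17.1% and 17.7%). Dpp4 and Mmp9, the genes of known level here, passed the filter through the types in which they were high. Dpp4, a protease that inactivates Cxcl12, was at 1 and 3.34 normalized reads in C1, 42.9 and 36.3 in C2 cells, and 3.08 and 1 in C3. It was higher in C2 than in C1 by 4.43 ± 0.69 and lower in C3 than in C2, at -4.49 ± 0.69, so that in C2 Dpp4 and Cxcl12 were high together. Mmp2, which also cuts Cxcl12, changed by 4.0 ± 0.34 in C2 against C1 and by -3.86 ± 0.34 in C3 against C2. Its centred log2 values were 1.60 and 1.39 in C2, and 1.33 and 2.34 in A, so Mmp2 was high in A too. They were -0.02 and 0.02 in B-type cells, -2.47 and -2.54 in C1, and -2.05 and -2.67 in C3. The averages of fibroblast markers given above were also higher in A and C2 than in C1 and C3, and their part was not tested. Mmp9 was at 612 and 819 normalized reads in B, against 1 and 51.3 in A.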

How the data were processed

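Total RNA of 10 cultured samples was made into TruSeq libraries, per the labels' protocols, with a kit that does not mark strand. Per the submitters' processing notes, TopHat, DESeq and mm10 are named, with a read counter and settings not given in the sources used here. Values as deposited are log2 and centred on the median of each gene, which was inferred from the values. A floor of 1 normalized read, known for 4762 of 17821 genes with values, gave levels, and 18334 genes were 0 in every library. The 17 genes with a cell turned into a date were left out. For Cxcl10, Ccl8 and Ccl6 a level was inferred where at least 4 libraries then lay within 0.01 of whole reads, a step chosen after seeing the data. Between 33.0% and 70.6% of low values per library lay on whole reads, too few for a count test.

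Genes were kept at 10 normalized reads in at least 2 libraries where a level was known, which removed 3567 and left 14254. The log2 values of all 10 libraries were fitted with limma 3.58.1 in R 4.3.3, a mean for each type, with 5 residual degrees of freedom and no trend of the spread. Tests were two-sided, with Benjamini-Hochberg adjustment over all tested genes within each of 6 comparisons. The procedure was tested on simulated data. Members called in at least 1 comparison are given with their value in every library. From the receptor, inducer and cleavage lists, up to 4 called genes with the largest differences a comparison could be named, and only some of these are. The counts of the receptor and inducer lists leave out 1 gene each, not reported here. The members and lists were chosen with earlier results of these data known. Alternatives were quantile normalization, no filter, a pseudocount of 8, a fit on the 4 libraries of the types compared, a replicate block, robust empirical Bayes and leaving out each library. Promoters were taken from RefSeq (GRCm38.p6).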

Additional observations from a re-analysis of the deposited data

How the results depend on the processing

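Directions of the 69 calls of chemokine ligands were kept in all the alternatives run, and the calls themselves were lost in part. Only quantile normalization, the pseudocount and leaving out a library of a compared type could alter a log2 difference. In the other alternatives the direction was fixed in advance. On the 4 libraries of the types compared alone, 14 of 69 were lost. B against A then had 5 called (3 higher, 2 lower). C1 against A had 5 (2 higher, 3 lower), without Ccl7, Ccl8, Ccl11, Cx3cl1 and Cxcl15. Ccl2 was lost in C1 against B, and Ccl2 and Cxcl15 were lost in C2 against C1. With a pseudocount of 8 for genes of known level, 12 were lost, among Ccl11, Ccl28, Cxcl2, Cxcl14 and Cxcl15, and C3 against C1 had 10 called. With quantile normalization 9 were lost, and B against A had 8 called, without Ccl11, Ccl4, Ccl7, Ccl8 and Cxcl2 and with Cxcl14 and Cxcl5. Without the filter 4 were lost, and with robust empirical Bayes 0. Leaving out each library in turn gave 9 to 12 called in B against A, 13 to 16 in C1 against B, 8 to 13 in C1 against A, 7 to 11 in C2 against C1, 8 to 10 in C3 against C2 and 13 to 14 in C3 against C1. Of the 69 calls, 14 were lost without at least 1 library. Levels near the floor are limited by depth, most in B, A and C2 replicate 1.

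The replicate numbers are shared between types, but differences between replicates 1 and 2 correlated at only -0.0609 to 0.0893 between types, none of 10 pairs over 0.1. No strong shared effect of the numbers was thus seen. Such correlations cannot tell whether libraries of 1 number share an animal, a culture or a run. With a replicate block, B against A had 11 called (Cxcl2 lost at adjusted p = 0.0512, Ccl5 gained), C1 against B 16, C1 against A 9 (Ccl8 lost at adjusted p = 0.058), C2 against C1 10, C3 against C2 9 and C3 against C1 14.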
